A study of Mus musculus with 45 samples.

Results

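Expression of 8 genes of the olfactory bulb, the forebrain station that receives the axons of the nose, was described in brain arrays of C57BL/6 mice. The genes were Omp, S100a5, Stoml3, Cdhr1, Doc2g, Eomes, Tbx21 and Th, and all 8 were found by symbol among the 22080 genes of the table, each with 1 probe set. They were chosen by their textbook place in the bulb and by their measured differences between these same brain diet groups, so their values in brain are a description without a test. The brain arrays were 15 of the 45 arrays, and the 15 liver and 15 kidney arrays served as background.

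The study asked how Ganoderma lucidum (Gl) mushroom extracts and simvastatin, an inhibitor of cholesterol synthesis, change gene expression under a high-cholesterol diet. All mice were male C57BL/6, 7 weeks old at the start, on an AIN-93 diet, with 8 mice per group killed at day 43. The Control group received AIN-93 alone, and the HCD group AIN-93 with 0.5% cholesterol. HCD+Gl-1 mice received that cholesterol diet with 1% of an extract of mushrooms grown on conventional substrate. HCD+Gl-2 mice received it with 1% of an extract of mushrooms grown with 10 mM acetylsalicylic acid (ASA), and HCD+Sim mice received it with 0.03 g of simvastatin per 100 g of diet. RNA of 4 mice made pool A, RNA of the other 4 made pool B, and pool C was A and B combined, so the 3 arrays of a group held 2 separate sets of animals.

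Olfactory sensory neurons of the nasal epithelium send their axons into the bulb, where they end in round structures named glomeruli. There they contact mitral and tufted cells, the output neurons of the bulb, and periglomerular interneurons, some of which make dopamine. Omp, S100a5 and Stoml3 are products of the sensory neurons, Cdhr1, Doc2g, Eomes and Tbx21 of mitral and tufted cells, and Th of the dopamine cells.

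The regulatory sequence before the start was taken from RefSeq (GRCm38.p6), which held a promoter for 7 of the 8 genes. Stoml3, Cdhr1 and Doc2g moved together in the arrays with S100a5, whose sequence is not printed. The 250 bases before the start are shown for Stoml3, Cdhr1 and Doc2g, each 5′ to 3′ on the strand of its gene. They lie at chr3:53488457-53488706 on the plus strand for Stoml3, chr14:37098348-37098597 on the minus strand for Cdhr1 and chr19:4003135-4003384 on the plus strand for Doc2g. Capitals mark matches to motifs of factors that act in these cell types.
Stoml3: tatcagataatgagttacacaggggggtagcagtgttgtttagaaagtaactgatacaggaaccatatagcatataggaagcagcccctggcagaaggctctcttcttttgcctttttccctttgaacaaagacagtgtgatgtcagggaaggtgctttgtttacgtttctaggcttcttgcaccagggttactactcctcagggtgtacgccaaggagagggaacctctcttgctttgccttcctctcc
Cdhr1: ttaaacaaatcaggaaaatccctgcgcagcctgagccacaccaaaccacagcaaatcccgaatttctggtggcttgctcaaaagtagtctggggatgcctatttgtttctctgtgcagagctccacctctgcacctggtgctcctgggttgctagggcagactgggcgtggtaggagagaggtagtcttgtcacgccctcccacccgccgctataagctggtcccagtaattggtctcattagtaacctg
Doc2g: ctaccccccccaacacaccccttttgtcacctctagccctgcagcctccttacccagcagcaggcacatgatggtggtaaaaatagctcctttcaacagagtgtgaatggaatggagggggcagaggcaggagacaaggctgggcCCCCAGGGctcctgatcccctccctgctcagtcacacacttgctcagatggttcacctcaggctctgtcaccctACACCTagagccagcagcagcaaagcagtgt
The 4 motifs were searched on both strands: CCCNNGGG, the core bound by EBF factors of sensory neurons; AGGTGT, the core bound by T-box factors such as Eomes and Tbx21; TAATTA, a homeodomain core; and TGACGTCA, the cAMP response element. No matches overlapped in the sequences shown. Doc2g held CCCCAGGG starting 105 bases and ACACCT, the T-box core on the other strand, starting 31 bases before its start. Among the 32851 promoters of the table, 11.8% held the EBF core and 11.8% the T-box core in the same window. Th, not printed, held TGACGTCA 45 bases before its start, a motif found in 1.55% of promoters. TAATTA was in 4.84% of promoters and in none of the 7. Stoml3, Cdhr1, S100a5, Eomes and Tbx21 held none of these letters in this window.

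The tissue labels were checked against marker genes fixed as lists. Levels are given on the log2 scale of the arrays, and a list is summarized by its summed level, the log2 of the sum of its genes on the linear scale. The neuron list lay between 14.76 and 15.08 in the brain arrays and did not exceed 9.59 in liver or 8.86 in kidney. The hepatocyte list lay between 16.47 and 16.60 in liver and the kidney list between 15.39 and 15.50 in kidney, each far above its level in the other tissues. Within groups, brain arrays correlated with each other at 0.985 to 0.997.

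One brain array stood furthest apart. Control array C, the mixture of A and B by the methods of the study, correlated at 0.991 with A and 0.985 with B, below the 0.996 between A and B. The summed level of the cerebellum list was 13.79, 14.29 and 11.94 in Control arrays A, B and C, so the mixture lay far below both of its parts. Array C of HCD+Gl-2 also lay below both of its parts in this list, at 11.90. Over all genes, array C lay between A and B for 20.4% to 33.9% of genes in the 5 brain groups. The share was lowest in HCD+Gl-2 and 23.6% in Control, so the departure from a mixture was not limited to Control. For the 8 bulb genes, array C lay between A and B in 7 of 40 gene and group combinations. For HCD against Control, the differences of Eomes, Th, S100a5, Stoml3, Cdhr1 and Doc2g are given with and without Control array C. So is the median of the 8 genes. Marker list medians and correlations between genes include that array. In pooled tissue, fewer cells of a type and less RNA per cell cannot be told apart.

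The 4 genes S100a5, Stoml3, Cdhr1 and Doc2g were higher in all 3 HCD arrays than in each of the other 12 brain arrays. Of all 22080 genes, 39 had this order, a share of 0.177%. Ranked by the gap between the lowest HCD array and the highest other array, Stoml3 was number 1, Cdhr1 number 2, S100a5 number 3 and Doc2g number 25. These ranks describe the pattern the genes were chosen on. Omp, Eomes, Tbx21 and Th did not have it.

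**Figure D1:**
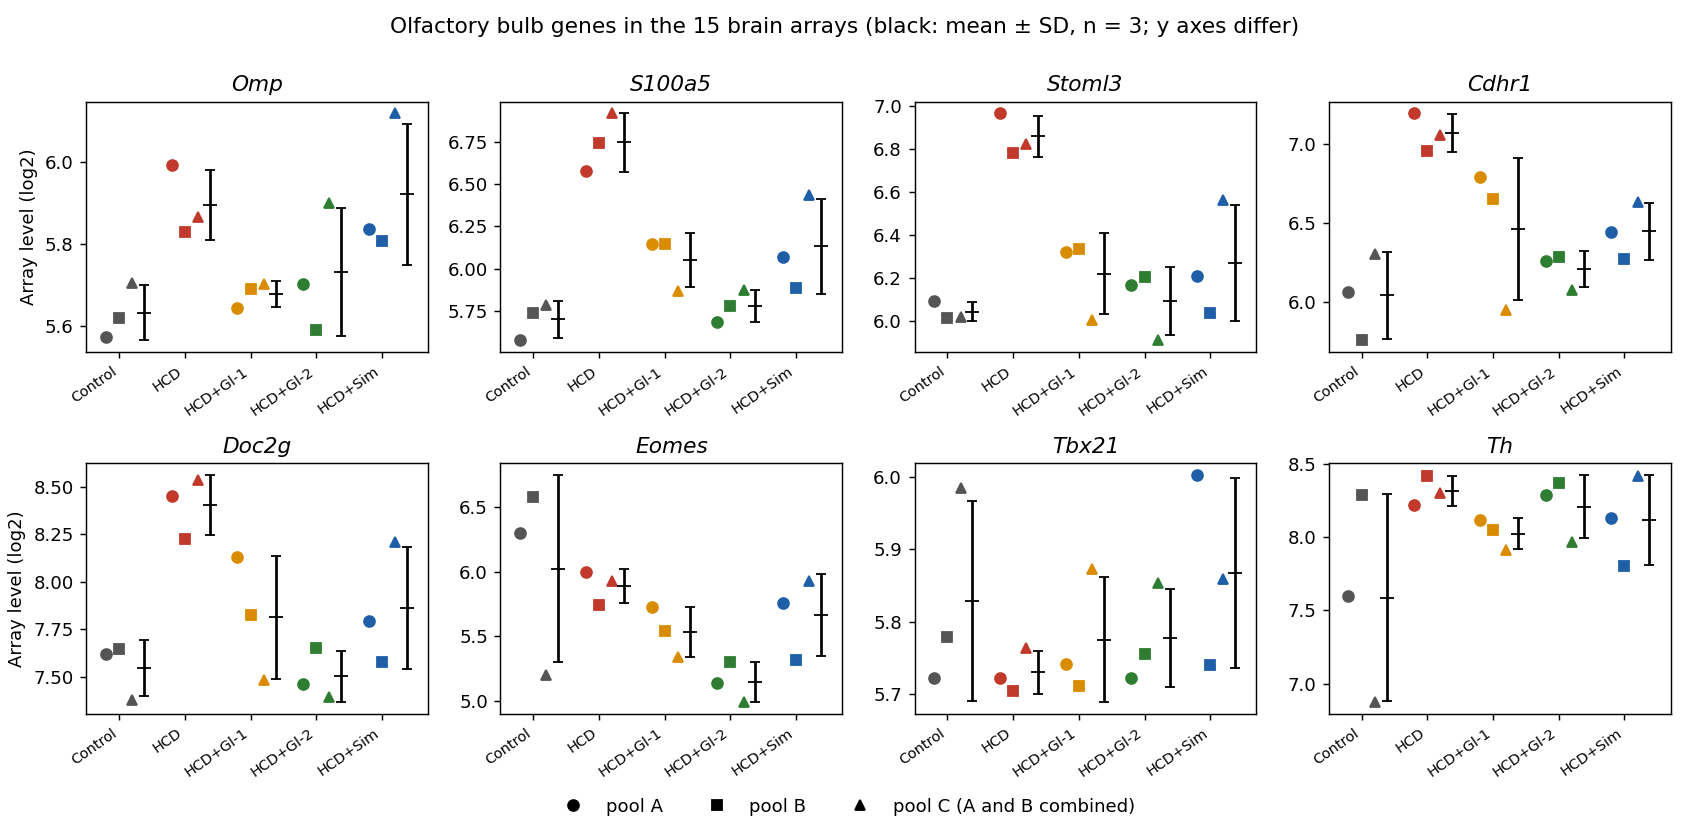
Level (log2) of the 8 olfactory bulb genes in each of the 15 brain arrays, by diet group, with pool A as circles, pool B as squares, pool C as triangles and the mean ± SD (n = 3) in black. The 3 HCD arrays lie above all others for S100a5, Stoml3, Cdhr1 and Doc2g, and Control array C lies far below A and B for Eomes.

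Among the products of sensory neurons, S100a5, a calcium-binding protein of olfactory sensory neurons, had levels of 5.58, 5.74 and 5.79 in Control arrays A, B and C and of 6.58, 6.75 and 6.92 in the HCD arrays. The levels were 6.14, 6.14 and 5.87 in HCD+Gl-1, 5.69, 5.78 and 5.88 in HCD+Gl-2, and 6.07, 5.89 and 6.44 in HCD+Sim. HCD was clear of every other group, and each of the other groups overlapped its neighbor in the order HCD+Sim, HCD+Gl-1, HCD+Gl-2, Control. HCD exceeded Control by 1.05 ± 0.11 (SE) on the log2 scale, a ratio of 2.07. Against HCD, the differences were -0.70 in HCD+Gl-1, -0.97 in HCD+Gl-2 and -0.62 in HCD+Sim, each ± 0.11.

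Stoml3, a stomatin-like membrane protein of the cilia of sensory neurons, had levels of 6.09, 6.01 and 6.02 in Control and of 6.97, 6.78 and 6.83 in HCD. In the treated groups the levels were 6.32, 6.34 and 6.00 (HCD+Gl-1), 6.17, 6.21 and 5.91 (HCD+Gl-2) and 6.21, 6.04 and 6.57 (HCD+Sim). Again only HCD was clear of its neighbor, and the order of the groups was that of S100a5. HCD exceeded Control by 0.82 ± 0.11, a ratio of 1.76, and the differences from HCD were -0.64 in HCD+Gl-1, -0.77 in HCD+Gl-2 and -0.59 in HCD+Sim.

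Omp, the olfactory marker protein of mature sensory neurons, varied much less. Its levels were 5.57, 5.62 and 5.71 in Control, 5.99, 5.83 and 5.86 in HCD, and 5.84, 5.81 and 6.12 in HCD+Sim. HCD+Gl-1 had 5.64, 5.69 and 5.70, and HCD+Gl-2 had 5.70, 5.59 and 5.90. The HCD arrays lay above those of Control and HCD+Gl-1 and overlapped those of HCD+Gl-2 and HCD+Sim. HCD exceeded Control by 0.26 ± 0.10, and the whole range over 15 brain arrays was 0.55, against 1.35 for S100a5.

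Among the products of mitral and tufted cells, Cdhr1, a protocadherin known from these cells and from photoreceptors, had levels of 6.07, 5.76 and 6.31 in Control and of 7.20, 6.96 and 7.06 in HCD. The levels were 6.79, 6.65 and 5.95 in HCD+Gl-1, 6.26, 6.29 and 6.08 in HCD+Gl-2, and 6.44, 6.27 and 6.63 in HCD+Sim. HCD was clear of the rest, and HCD+Gl-1 was spread widely, with array C below A and B. HCD exceeded Control by 1.03 ± 0.15, a ratio of 2.04. Against HCD, the differences were -0.61 in HCD+Gl-1, -0.86 in HCD+Gl-2 and -0.62 in HCD+Sim, and without HCD+Gl-1 array C the first was -0.35.

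Doc2g, a C2-domain protein of the Doc2 family, had levels of 7.62, 7.65 and 7.38 in Control and of 8.45, 8.23 and 8.54 in HCD. The levels were 8.13, 7.83 and 7.48 in HCD+Gl-1, 7.46, 7.65 and 7.39 in HCD+Gl-2, and 7.79, 7.58 and 8.21 in HCD+Sim. The gap was narrow, since HCD array B exceeded HCD+Sim array C by 0.02. HCD exceeded Control by 0.86 ± 0.13, and the differences from HCD were -0.59 in HCD+Gl-1, -0.90 in HCD+Gl-2 and -0.54 in HCD+Sim. HCD+Gl-2 and Control overlapped at the low end of the order.

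Eomes (Tbr2), a T-box factor of mitral and tufted cells that also marks unipolar brush cells of the cerebellum, followed another order. Its levels were 6.30, 6.57 and 5.20 in Control and 6.00, 5.74 and 5.93 in HCD. The levels were 5.73, 5.54 and 5.34 in HCD+Gl-1, 5.14, 5.30 and 4.99 in HCD+Gl-2, and 5.76, 5.31 and 5.93 in HCD+Sim. Control held the highest arrays and, in array C, one of the lowest. HCD minus Control was -0.13 ± 0.18, became -0.54 without Control array C and turned to 0.14 without Control array B. HCD+Gl-2 was the lowest group and clear of HCD+Gl-1, with a difference from HCD of -0.74 ± 0.18. Over the 15 brain arrays Eomes correlated with the summed level of the cerebellum list at r = 0.92, and the other 7 bulb genes at -0.27 to 0.34. The part of the cerebellum in the values of Eomes was not tested.

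Tbx21 (T-bet), the other T-box factor of these cells, was between 5.70 and 6.00 in all 15 brain arrays. HCD held the lowest group mean, 5.73, and HCD+Sim the highest, 5.87, and all groups overlapped their neighbors. The difference of HCD from Control was -0.10 ± 0.09, opposite in sign to those of S100a5, Stoml3, Cdhr1 and Doc2g.

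Th, tyrosine hydroxylase, makes the precursor of dopamine in periglomerular cells and also in the midbrain and in noradrenergic neurons of the brainstem. Its levels were 7.60, 8.28 and 6.88 in Control, 8.22, 8.42 and 8.30 in HCD, and 8.11, 8.05 and 7.91 in HCD+Gl-1. HCD+Gl-2 had 8.29, 8.37 and 7.96, and HCD+Sim had 8.13, 7.80 and 8.42. Control array C was the lowest of all, and every group overlapped its neighbor in the order of means. HCD exceeded Control by 0.73 ± 0.18, but by 0.37 without Control array C. The summed level of the noradrenergic list, which leaves Th out, was 9.21, 9.32 and 8.63 in the Control arrays, and the next lowest brain array had 8.90. Its part in the values of Th was not tested. The summed level of the list of midbrain dopamine neurons lay within 11.40 to 11.67 in the brain arrays, but its genes differed. In Control arrays A, B and C, Slc6a3 had 7.34, 7.38 and 6.70, Slc18a2 7.01, 7.22 and 6.12, and Ddc 6.94, 6.87 and 6.33. Nr4a2, also on the list, went the other way with 9.25, 9.26 and 9.49. The part of midbrain cells in the values of Th was not tested.

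A gene was called when its absolute log2 difference exceeded 0.7 and its adjusted p in limma was at most 0.05. In brain HCD against Control, 4 of the 8 bulb genes were called, all higher, against 0.0317% of all genes (7 of 22080). In HCD+Gl-2 against HCD, the same 4 genes were called, all lower, against 0.0226% (5 of 22080). These counts depended on the fit. From the 15 brain arrays alone, 2 of the 8 genes were called in HCD against Control, of 4 called among all genes. In HCD+Gl-2 against HCD that fit called 1 of the 8, of 1 among all genes. After a filter on low values, which Doc2g and Th alone of the 8 passed, 1 and 1 were called, of 2 and 1 among all genes. From the arrays of the compared groups alone, 2 and 5 were called, of 3 and 5 among all genes. In HCD+Gl-1 against HCD none of the 8 was called, against 0.00906% of all genes. Without HCD+Gl-1 array A 2 were called (of 5 among all genes), without HCD+Gl-1 array B 1 (of 2) and without HCD array A 1 (of 1). In HCD+Sim against HCD no gene was called (0%), and 4 genes had an adjusted p at most 0.05 with a smaller difference. In limma 1220 of 22080 genes had an unadjusted p under 0.05, near the share that this threshold gives without any difference. Of the 8 bulb genes, 3 were called in that comparison without HCD+Sim array C (of 4 among all genes). Without HCD array A 1 was called (of 1), and from pools A and B only 2 (of 8). Since these contrasts were used to choose the genes, the counts are a description. The 3 comparisons with HCD share its arrays, so a high value there enters all 4 differences.

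The median difference of the 8 genes was 0.77 in HCD against Control, -0.47 in HCD+Gl-1, -0.75 in HCD+Gl-2 and -0.38 in HCD+Sim, each of these against HCD. Over all genes the medians were 0.01, 0.02, 0.02 and 0.00. For S100a5, Stoml3, Cdhr1 and Doc2g alone the medians were 0.94, -0.62, -0.88 and -0.60. Without Control array C the first median of the 8 genes was 0.57, and HCD exceeded Control by 1.09 for S100a5, 0.81 for Stoml3, 1.16 for Cdhr1 and 0.77 for Doc2g. Against Control rather than HCD, the differences of these 4 genes were 0.18 to 0.42 in HCD+Gl-1, -0.05 to 0.16 in HCD+Gl-2 and 0.23 to 0.43 in HCD+Sim. HCD+Gl-2 minus HCD+Gl-1 was -0.27 for S100a5, -0.13 for Stoml3, -0.26 for Cdhr1 and -0.31 for Doc2g.

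**Figure D2:**
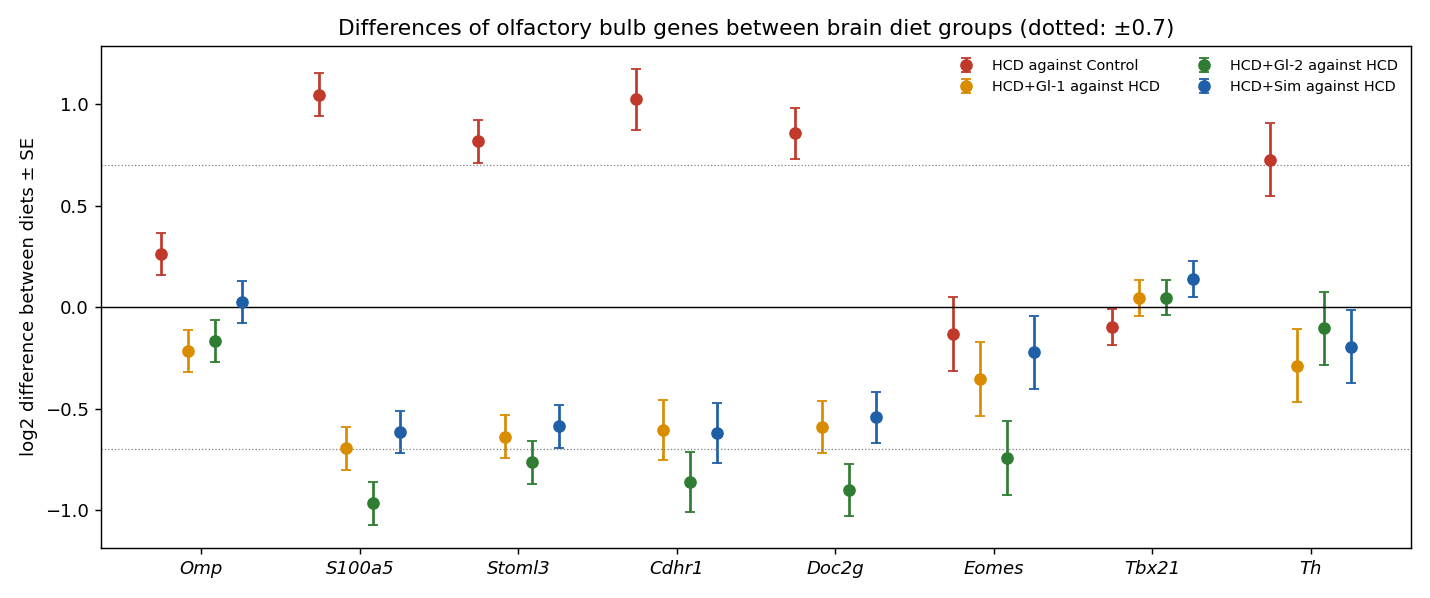
Log2 difference ± SE between brain diet groups for the 8 olfactory bulb genes in 4 comparisons, with dotted lines at ±0.7. S100a5, Stoml3, Cdhr1 and Doc2g lie above 0.7 in HCD against Control and below -0.7 in HCD+Gl-2 against HCD, and Tbx21 lies near 0 in all 4.

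S100a5, Stoml3, Cdhr1 and Doc2g varied together, which follows in part from their shared high HCD arrays, the pattern the genes were chosen on. Over the 15 brain arrays, their pairwise correlations ran from 0.877 (S100a5 and Cdhr1) to 0.943 (Stoml3 and Doc2g), with the diet groups and the pools C, which share animals with A and B, included. After the mean of each group was taken off, the correlations were 0.45 to 0.83. In that measure Stoml3 and Doc2g were again the closest pair, at 0.83. HCD+Gl-1 array C had the lowest value of its group and HCD+Sim array C the highest value of its group for each of these 4 genes. Eomes and Th correlated at 0.27 over the 15 arrays and at 0.91 once group means were taken off, both having their lowest Control value in array C.

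In liver and kidney, arrays not used to choose the genes, none of the 8 was called in any of the same 4 diet comparisons. The shares of all genes called were 0.245%, 0.163%, 0.303% and 0.258% in liver, in the order HCD against Control, then the first extract, the second extract and simvastatin, each against HCD. In kidney they were 0.0408%, 0.131%, 0.335% and 0.14% in the same order. The 64 differences of the 8 genes in these tissues ran from -0.22 to 0.19, with a lowest adjusted p of 0.391 in limma, and 1 had an unadjusted p under 0.05 (Stoml3 in kidney, HCD+Sim against HCD, -0.22 ± 0.11). The median of the 8 genes in HCD against Control was 0.04 in liver and -0.01 in kidney.

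Only some of the genes stood above the other tissues in brain. Th exceeded its liver level by 1.61 ± 0.08 and its kidney level by 1.80 ± 0.08, Cdhr1 by 0.82 ± 0.07 and 1.00 ± 0.07, and Stoml3 by 0.80 ± 0.05 and 0.96 ± 0.05. These 3 of the 8 were called higher in brain than in each tissue, against 17.5% of all genes for liver and 14.5% for kidney. The brain means include the HCD arrays the genes were chosen on, so these calls are a description. Without the HCD arrays, the excess over liver was 0.68 for Stoml3 and 0.65 for Cdhr1, below the 0.7 of a call. Against kidney both stayed called, with 0.84 for Stoml3 and 0.85 for Cdhr1, and Th stayed called against both tissues. Doc2g (0.45 above liver) and Eomes (0.43) were higher in brain by less than 0.7, and without the HCD arrays by 0.31 and 0.38.

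The brain mean of S100a5 lay 0.12 above that of liver and 0.26 above that of kidney, but without the HCD arrays of the 3 tissues the differences were -0.048 and 0.087, so the excess over liver rested on the arrays the gene was chosen on. In liver it lay between 5.78 and 6.15, and 7 of the 12 brain arrays outside HCD lay in that range. Omp and Tbx21 were lower in brain than in liver, with differences of -0.25 for Omp and -0.32 for Tbx21, or -0.28 and -0.30 without the HCD arrays. Their differences from kidney were -0.11 and -0.13. So these 2 defining bulb genes showed no signal in the brain arrays above that of tissues without a bulb. The labels say only brain, and whether the dissected tissue included the bulb is not given.

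**Figure D3:**
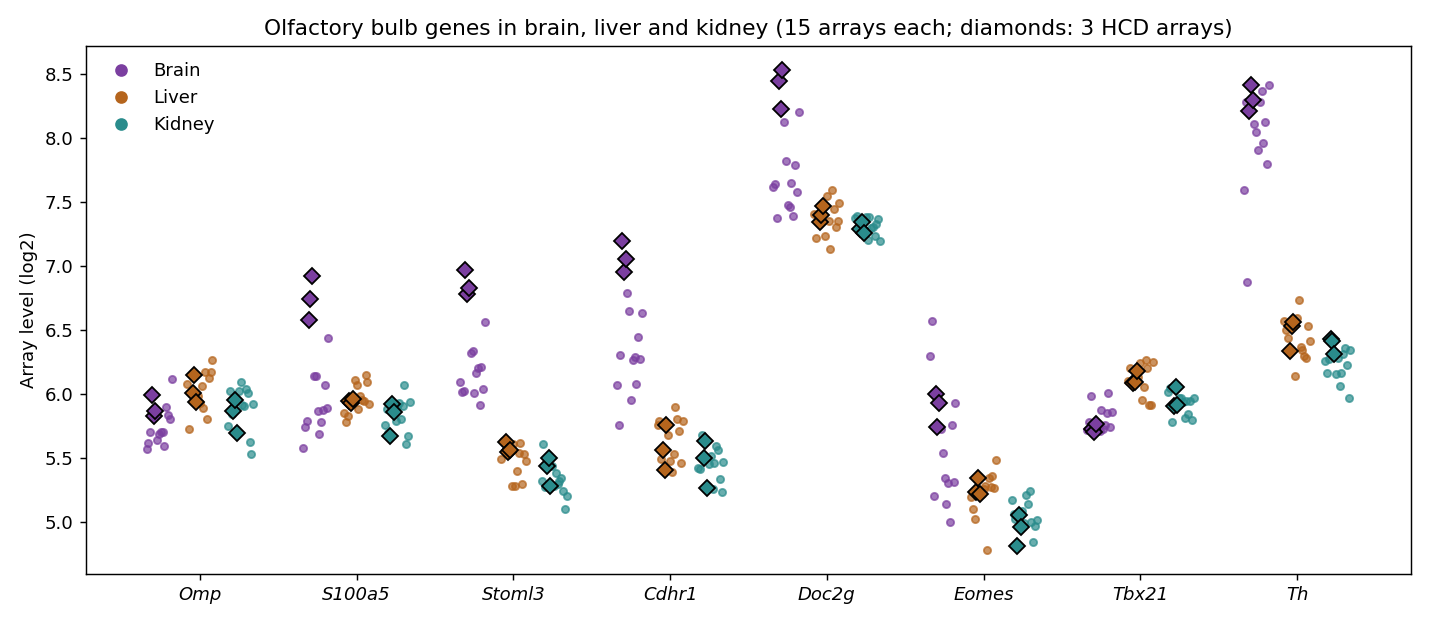
Level (log2) of the 8 olfactory bulb genes in the 15 brain, 15 liver and 15 kidney arrays, with the 3 HCD arrays of each tissue as diamonds. The HCD diamonds stand at the top of the brain arrays for S100a5, Stoml3, Cdhr1 and Doc2g, and lie among the other points in liver and kidney.

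Other genes of the bulb and of neighboring regions were read from lists that leave the 8 genes out, with Control array C included. In HCD against Control, none of 22 genes of olfactory sensory neurons was called and their median difference was 0.02. None of 11 further genes of mitral and tufted neurons was called, with a median of 0.19 and 7 of 11 differences above 0. Of 22 genes of bulb interneurons 1 was called, with a median of 0.20 and 20 of 22 differences above 0. The median over all genes was 0.01. Lists of other brain regions had differences of like size in this comparison: the cerebral cortex list had a median of 0.25 with 13 of 13 differences above 0, the thalamus list 0.20 with 9 of 10, the activity-regulated genes 0.22 with 13 of 16 and the striatum list 0.12 with 13 of 14, and none of their genes was called.

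The called interneuron gene was Scgn, secretagogin, a calcium-binding protein of periglomerular and granule cells. Its levels were 4.27, 4.30 and 4.49 in Control and 5.12, 4.99 and 5.06 in HCD, and the groups did not overlap. All of these levels were low, below the array medians of 6.76 to 6.92. Scgn rose by 0.70 ± 0.12 (adjusted p = 0.00196 in limma), and fell short of a call when one of 4 arrays was left out: HCD array A (0.67), HCD array C (0.70), Control arrays A (0.66) and B (0.67). In HCD+Gl-2 against HCD its difference was -0.52 ± 0.12 (adjusted p = 0.102 in limma). Among interneuron factors not called, Dlx1 differed by 0.74 ± 0.20 and Dlx5 by 0.65 ± 0.17 between HCD and Control, while Pax6 differed by -0.48 ± 0.18.

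In HCD+Gl-2 against HCD no gene of the 3 bulb lists was called, and their medians were 0.01 for sensory neurons, -0.14 for mitral and tufted neurons and -0.11 for interneurons. In HCD+Gl-1 against HCD the medians were -0.05, 0.02 and -0.07, and in HCD+Sim against HCD 0.00, -0.13 and -0.13, with none called. Nasal epithelium (15 genes) and olfactory receptors (1100 genes) had no called gene in any of the 4 comparisons, and medians between -0.04 and 0.05. Olfactory ensheathing cells (10 genes), which wrap the sensory axons, and migrating neuroblasts (8 genes) had none either.

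Beyond the bulb, the cerebellum list varied most among the brain arrays, from 11.90 to 14.29 in its summed level, against 0.24 in range for bulb interneurons. A summed level can hide changes of single genes. Calb2, on the interneuron list, had 10.71, 11.10 and 8.50 in Control arrays A, B and C. The summed level of the cerebellum list spanned 11.94 to 14.29 in Control, 12.45 to 13.40 in HCD and 12.89 to 13.02 in HCD+Gl-1. It spanned 11.90 to 12.53 in HCD+Gl-2 and 12.38 to 13.19 in HCD+Sim. In HCD+Gl-2 against HCD, 0 of the 16 genes of the cerebellum list had a difference above 0, with a median of -0.66 and none called. In HCD against Control, with Control array C included, the median was -0.26 and 2 of 16 were above 0. Control array C had the lowest cerebellum level of its group and array B the highest. In arrays C and B, the levels were 5.79 and 5.74 for S100a5, 6.02 and 6.01 for Stoml3, and 5.71 and 5.62 for Omp. They were 6.31 and 5.76 for Cdhr1, 7.38 and 7.65 for Doc2g, and 5.99 and 5.78 for Tbx21. Eomes had 5.20 and 6.57, and Th 6.88 and 8.28. The part of unequal cerebellum in the bulb gene differences was not tested.

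**Figure D4:**
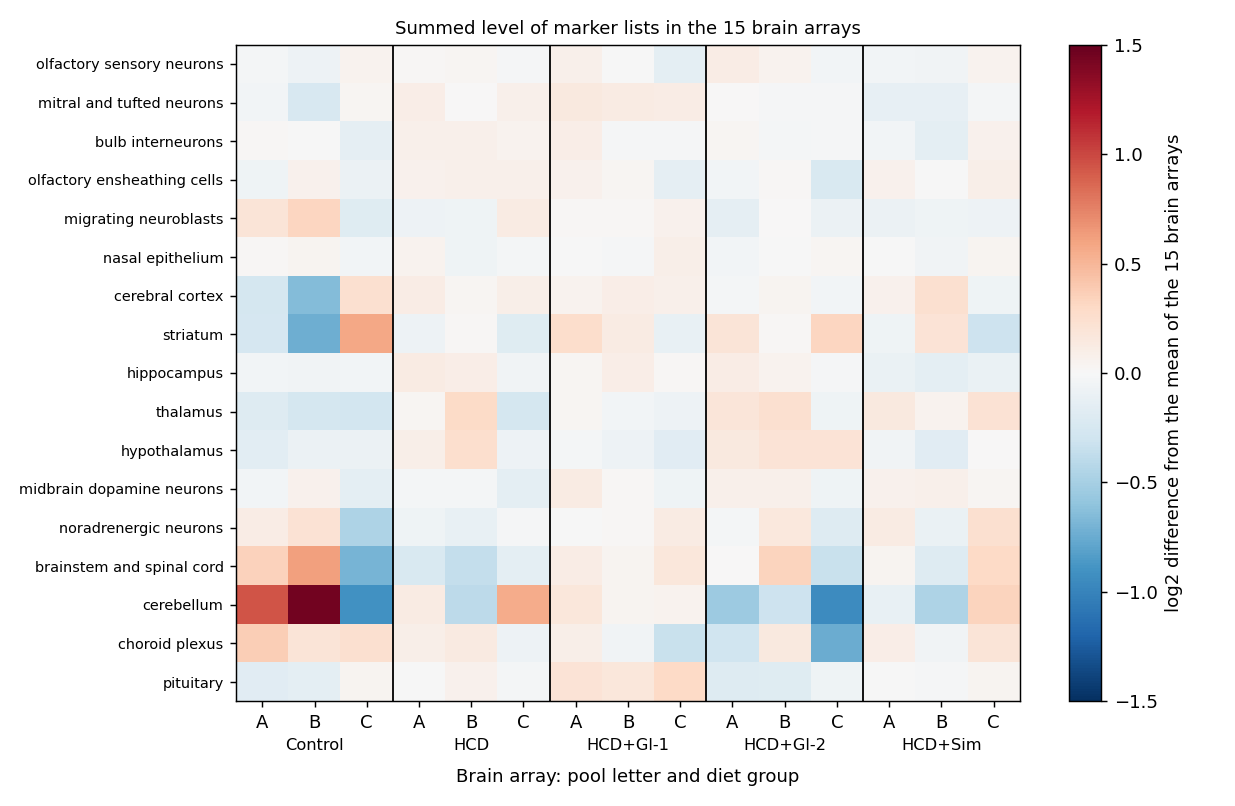
Summed level of 17 marker lists in each of the 15 brain arrays, as the log2 difference from the mean of the 15 arrays, red for higher and blue for lower. The cerebellum row runs from 14.29 in Control array B to 11.90 in HCD+Gl-2 array C on the log2 scale, while the bulb interneuron row spans 0.24.

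One gene of the pituitary list, another structure at the base of the brain, was called. Gh, growth hormone, had 6.56, 6.55 and 7.46 in Control, 8.06, 8.76 and 7.64 in HCD and 9.10, 9.20 and 8.95 in HCD+Gl-1. For Gh, HCD+Gl-1 was thus above HCD, while 7 of the 8 bulb genes, none of them called, had differences below 0 in that comparison. It rose by 1.29 ± 0.18 in HCD against Control (adjusted p = 5.06e-05 in limma), and the call was lost when only the arrays of brain or of the compared groups were fitted. Against HCD it rose by 0.93 ± 0.18 in HCD+Gl-1 (adjusted p = 0.0310 in limma) and fell by 0.90 ± 0.18 in HCD+Gl-2 (adjusted p = 0.0296 in limma). The first of these calls was lost without any 1 of the 6 arrays compared except HCD array B (0.67 to 1.00 where lost), and the second without any 1 except HCD array C (-0.95 to -0.60 where lost).

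The genes most like the 8 bulb genes were found by correlation over the 15 brain arrays with the mean of the 8, each gene centered and scaled first. The closest was Ms4a15 (r = 0.88), followed by Shisa3 (0.83), Scgn (0.82), Lgr6 (0.82), Frmd7 (0.80), Cpa6 (0.80), Hoxd13 (0.80), Acaa1b (0.78), Bub1b (0.78) and Evx2 (0.78). Shisa3 was also on the mitral and tufted list and Scgn on the interneuron list. HCD minus Control was 0.45 ± 0.09 for Ms4a15 and 0.62 ± 0.12 for Frmd7, and 0.11 ± 0.09 for Evx2. The most opposed genes were Olfr1469 (-0.86), Pinx1 (-0.86), 4930503E14Rik (-0.84), 4930447F04Rik (-0.83) and Snord8 (-0.80). Over the 10 arrays of pools A and B, 3 of the 10 closest and 1 of the 5 most opposed genes stayed on their list, and without Control array C 8 of the 10 closest did.

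**Figure D5:**
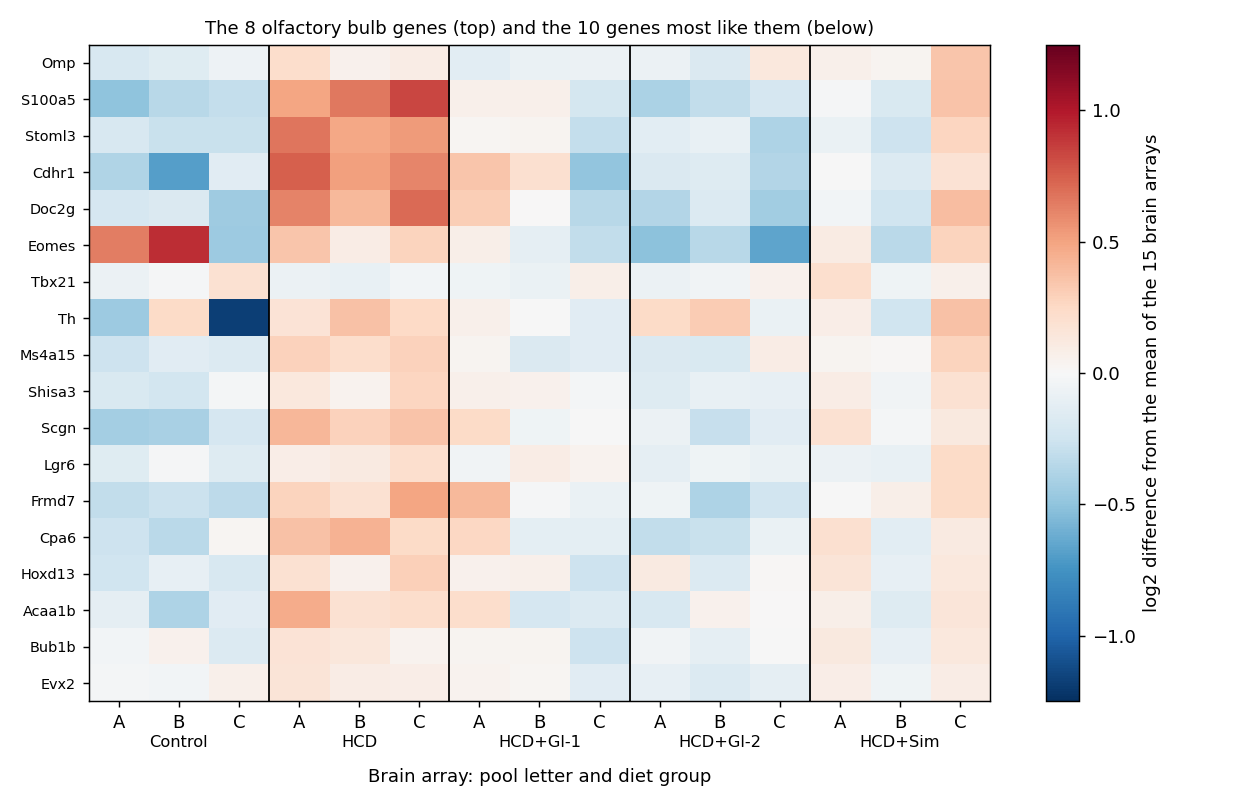
Level of the 8 olfactory bulb genes (top 8 rows) and of the 10 genes most like them in each of the 15 brain arrays, as the log2 difference from the mean of the 15 arrays, red for higher and blue for lower. The 3 HCD columns are red for S100a5, Stoml3, Cdhr1 and Doc2g, and Eomes and Th are blue in Control array C.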

How the data were processed

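The submitters hybridized pooled RNA of brain, liver and kidney to Affymetrix mouse gene ST arrays. The deposited table holds log2 expression values that the authors normalized by RMA and adjusted with ComBat. The batches behind that adjustment are not given in the sources used here, so its effect on group differences is unknown. It holds 22080 genes, and 13 names had been turned into dates. Array medians ran from 6.76 to 6.92, and the small number of arrays limits precision.

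Group means were fitted to all 45 arrays in limma 3.58.1 (R 4.3.3) with moderated variances, following the thresholds of the study's methods (log2 difference over 0.7, Benjamini-Hochberg adjusted p at most 0.05). Since pool C repeats the animals of A and B, p-values measure only the spread between these arrays, which may be technical. The fit was tested on simulated data. The genes, the 26 marker lists and the tests were chosen with earlier results of these data known. Named genes were the 8 bulb genes, list genes called in a brain comparison, and the 10 most and 5 least correlated genes. Dlx1, Dlx5, Pax6, Slc6a3, Slc18a2, Ddc, Nr4a2 and Calb2 were named after their values were seen. Promoters were read with Python 3.11.15 (pandas 2.3.3), and plots drawn with matplotlib 3.10.9. Liver and kidney arrays carry a description naming brain, but their tissue label and markers name liver and kidney.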

Additional observations from a re-analysis of the deposited data

How the results depend on the processing

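In the 4 brain comparisons, S100a5, Stoml3, Cdhr1 and Doc2g kept their direction without each array in turn and with pools A and B only. Leaving arrays out could not turn these signs, since each HCD array lay above every other brain array, the pattern the genes were chosen on. The direction also held with quantile normalization within brain. Signs turned for Eomes in HCD against Control, Th in HCD+Gl-2 against HCD, Omp in HCD+Sim against HCD and Tbx21 in HCD+Gl-1 against HCD, all differences that were not called. Without the HCD arrays of the 3 tissues, a setting chosen after seeing the data, the difference of S100a5 between brain and liver turned to -0.048.

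Counts of called genes depended on the fit. In HCD against Control (7 genes), the count was 4 from the 15 brain arrays, 3 from the compared groups, 207 from pools A and B, 2 of the 11040 genes that passed a filter on low values (of the bulb genes, Doc2g and Th passed it) and 12 by adjusted p alone, and 6 to 139 without one array each, 139 being without Control array C. In HCD+Gl-1 against HCD (2 genes), it was 0, 1, 7, 0 and 4 under the same settings and 0 to 5 without one array. In HCD+Gl-2 against HCD (5 genes), it was 1 from the brain arrays, 17 from pools A and B, 1 after the filter and 8 by adjusted p alone, and 3 to 8 without one array. In HCD+Sim against HCD (0 genes), it was 8 from pools A and B, 4 by adjusted p alone and 0 to 4 without one array. The cause was not tested.

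The median of the 8 genes was 0.54 in HCD against Control and -0.30 in HCD+Gl-1 against HCD with pools A and B only, and 0.94 in HCD against Control for S100a5, Stoml3, Cdhr1 and Doc2g, a subset chosen after seeing the data, as was leaving Control array C out of the likeness list. Without one array each the medians were 0.57 to 0.84, -0.57 to -0.30, -0.82 to -0.67 and -0.53 to -0.23, in the order HCD against Control, then the first extract, the second extract and simvastatin against HCD.

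Pool letters were not taken to pair the arrays: of 30 same-letter pairs of brain arrays 7 had deviations correlated over 0.1, and 3 of 15 arrays matched best with their own letter. With the letter as a replicate block, 7, 1, 4 and 0 genes were called in the 4 comparisons. Gh lost its call in HCD+Gl-1 and HCD+Gl-2 against HCD under the block.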
